A study of Mus musculus with 48 samples.

Results

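The nuclear receptors of liver metabolism described here were 10 genes chosen by symbol: the 3 peroxisome proliferator-activated receptors Ppara, Ppard and Pparg, their partner Rxra, the xenobiotic receptors Nr1i2 (PXR) and Nr1i3 (CAR), the oxysterol receptor Nr1h3 (LXR alpha), the bile acid receptor Nr1h4 (FXR), the corepressor-like Nr0b2 (SHP) and the hepatocyte regulator Hnf4a. All 10 were among the 11275 rows of the frozen (FROZ) table, and 9 were among the 6673 rows of the formalin-fixed paraffin-embedded (FFPE) table, where Pparg was not listed. Liver RNA of 24 male B6C3F1 mice, 4 weeks old, was profiled by TempO-Seq, in which pairs of probes that bind next to each other on an RNA are ligated and the ligated products sequenced. The mice drank dichloroacetic acid (DCA), a by-product of water chlorination, for 6 days at 1.0, 2.0 or 3.5 g/L (198, 313 and 427 mg/kg-d), and vehicle controls received 0 g/L, with 6 mice per group. Each mouse gave 1 FROZ library, made from purified RNA of right medial and left lateral caudate lobes, as the paper names them. It also gave 1 FFPE library, made from lysed sections of the left lateral and right medial lobes. According to the paper, both kinds of tissue had been archived for decades, the FFPE blocks longer than the frozen tissue. It reports low RNA integrity for isolated RNA of both, lower in FFPE, but the section lysates used here were not measured. Lobe, input (purified RNA or section lysate), storage, RNA quality and preservation therefore cannot be told apart. All groups share the strain, sex and age, and each library is 1 animal.

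Nuclear receptors are transcription factors, most of which are switched by a small lipid-soluble ligand and bind DNA at copies of a short half-site. PPARs, LXR, FXR, PXR and CAR bind as pairs with RXR, HNF4A binds with a second copy of itself, and SHP lacks a DNA-binding domain and holds other receptors back. In liver these proteins set the expression of enzymes of fatty acid oxidation, bile acid and cholesterol handling and drug metabolism. Their activity depends on ligand, so the RNA level of a receptor is not a measure of its activity.

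Levels are given as log2(CPM + 1), where CPM is reads per 1000000 on the listed genes of a table, and differences are on this scale, which understates the change of genes near 1 CPM. A gene was called at a false discovery rate (FDR, Benjamini-Hochberg over all genes of the table) under 0.05 in limma. In bulk liver, fewer cells of a type and less RNA per cell cannot be told apart. Recovered depth was 6.69 to 9.85 M reads (M stands for 1000000) in FROZ and 1.82 to 6.02 M in FFPE, and 12 to 61 genes per FROZ library and 65 to 1580 per FFPE library were listed at 0. Of the 8 FFPE libraries with over 10% of genes at 0, 1 was a vehicle control, 4 came from the lowest dose and 3 from the middle dose. A fit without these libraries keeps only animals 50 and 51 at 198 mg/kg-d and animals 74, 76 and 78 at 313 mg/kg-d. Hepatocyte markers (all 7 listed, including Alb and Apoa1) summed to 19060 to 36010 CPM in every FROZ library (22280 to 28260 CPM in vehicle mice and 20320 to 24650 CPM at 427 mg/kg-d), while the 4 adipocyte markers were listed in neither table. The assay damped very abundant transcripts, so CPM need not be a share of liver RNA. In FROZ at 427 mg/kg-d, 1 of 7 hepatocyte markers was higher, and 2 of 4 Kupffer cell, 2 of 5 stellate cell and 1 of 6 endothelial cell markers were lower, where 22.7% of all listed genes were called higher and 7.33% lower. The summed level ran from 50.4 to 80.9 CPM in vehicle mice and 42.3 to 59 CPM at the top dose for Kupffer cell markers, from 174.9 to 233.8 and 143.7 to 200.3 CPM for stellate cell markers and from 168.2 to 197.5 and 148.5 to 170.5 CPM for endothelial cell markers, with no listed marker at 0 in all mice of a group. In FFPE, where 6 hepatocyte markers were listed, their sum was 36250 to 49320 CPM in vehicle mice, 38100 to 65100 at 198 mg/kg-d, 35760 to 43130 at 313 mg/kg-d and 26060 to 30230 at 427 mg/kg-d, so that the top dose did not overlap with vehicle. Of these 6, Apoa1 was called lower at 427 mg/kg-d (-0.79, FDR 0.00779), and 3 were at an unadjusted p under 0.05 in limma. The median difference over the 6 was 0.05. Apoa1 and Alb, which make up much of the sum, averaged 14.93 and 13.22 on the log2 scale in vehicle mice. At 427 mg/kg-d they averaged 14.14 and 12.61. Of the other cell type markers listed in FFPE 0 were called by limma, with 1 (Cd5l) at an unadjusted p under 0.05. The part of these markers in the results below was not tested.

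In FROZ liver, the number of receptor genes called against vehicle was 1 of 10 at 198, 3 at 313 and 7 at 427 mg/kg-d. Only Nr1h4 was called at the lowest dose, as higher, where 1.12% of all listed genes were called higher and 0.443% lower. At 313 mg/kg-d, Nr1h4 was again higher and Ppard and Nr0b2 were lower, against 20.5% of all genes higher and 6.15% lower. At 427 mg/kg-d, Ppara, Pparg, Nr1i2, Nr1i3, Nr1h4 and Hnf4a were higher and Ppard was lower, against 22.7% and 7.33% of all genes. Calls were more frequent among genes averaging at least 10 CPM, where 2667 of 5875 genes were called. Of the 8 receptor genes among them, 5 were higher and 1 lower. After median-ratio scaling, 3 of the 10 were higher and 1 lower, with 2847 of 11275 genes called. The median difference over the 10 genes at this dose was 0.41, and over all listed genes 0.10. Ppard was the only one of the 10 with a fold change above 2, a size reached with the FDR by 3.5% of all genes. A straight line over the 4 doses called 5 of the 10 as rising and 1 as falling, against 24.4% and 7.73% of all genes.

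**Figure D1:**
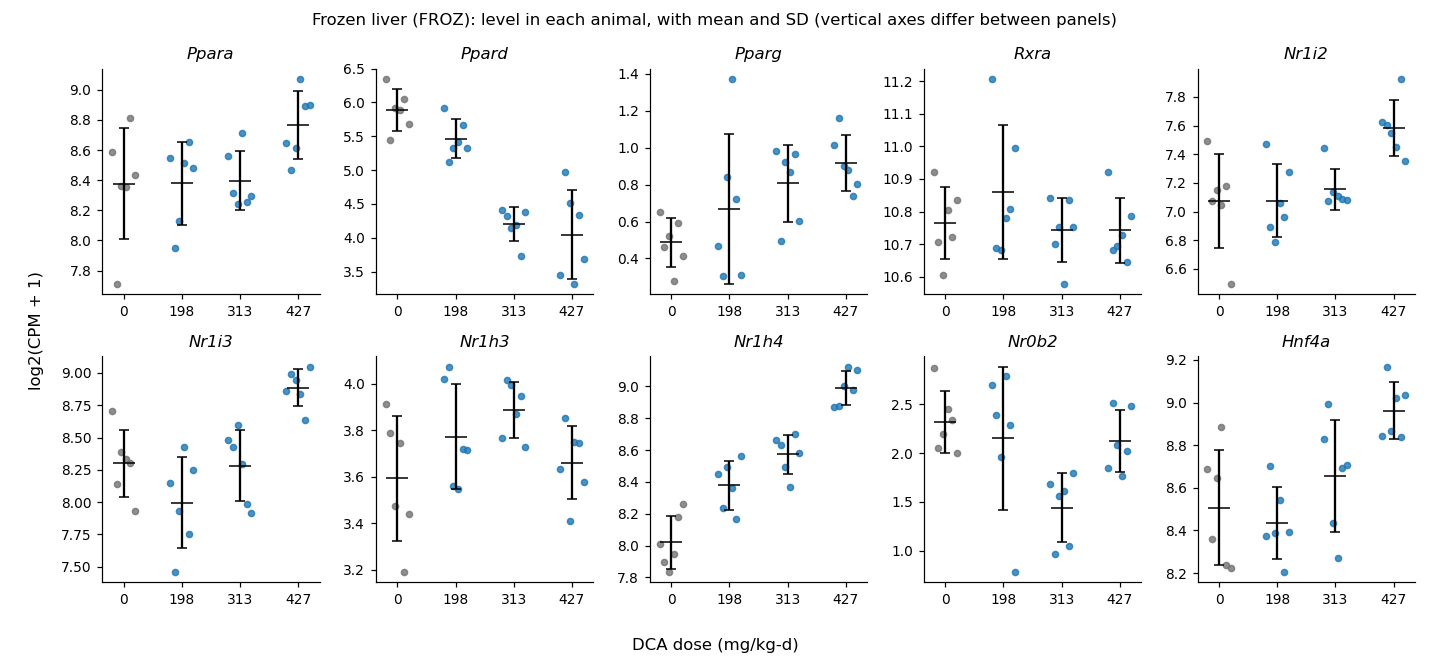
Level of the 10 receptor genes in FROZ liver as log2(CPM + 1) against DCA dose in mg/kg-d, with 1 point per animal and the mean and SD of the 6 animals of a group as a dash with bars. Ppard steps down between 198 and 313 mg/kg-d, Nr1h4 climbs at each dose, and Nr1i2, Nr1i3 and Hnf4a have their highest mean at 427 mg/kg-d.

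PPAR delta (Ppard, chromosome 17, 28232700 to 28301474, plus strand, GRCm38), the receptor found in most tissues that takes part in fatty acid oxidation and glucose use, showed the largest change of the 10. Its FROZ level ran from 5.45 to 6.35 in vehicle mice (median 5.90), from 5.12 to 5.92 at 198 mg/kg-d (median 5.37), from 3.74 to 4.41 at 313 mg/kg-d (median 4.25) and from 3.32 to 4.98 at 427 mg/kg-d (median 4.01). Every mouse at both upper doses lay below every vehicle mouse and below every mouse at 198 mg/kg-d. The difference from vehicle was -0.43 ± 0.21 (SE) at the lowest dose, which did not pass the test (FDR 0.304), -1.69 ± 0.21 at 313 mg/kg-d (FDR 1.65e-06) and -1.84 ± 0.21 at 427 mg/kg-d (FDR 2.05e-07), a 3.59-fold lower level. The step from 198 to 313 mg/kg-d was itself called (-1.26, FDR 0.000231), where 11.7% of all genes were called in either direction. Between 313 and 427 mg/kg-d the difference was -0.15 with a 95% interval of -0.59 to 0.29. The spread was widest at 427 mg/kg-d, with an SD of 0.66 against 0.25 to 0.31 in the other groups, and animal 98 stood highest there at 4.98. These values rest on 75 to 703 reads per library.

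The 250 bases before the RefSeq start of Ppard, at chr17:28232504-28232753 on the plus strand of GRCm38.p6, are shown because this gene moved most. Capitals mark the GC box GGGCGG, searched on both strands, which occurs 3 times.

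Ppard: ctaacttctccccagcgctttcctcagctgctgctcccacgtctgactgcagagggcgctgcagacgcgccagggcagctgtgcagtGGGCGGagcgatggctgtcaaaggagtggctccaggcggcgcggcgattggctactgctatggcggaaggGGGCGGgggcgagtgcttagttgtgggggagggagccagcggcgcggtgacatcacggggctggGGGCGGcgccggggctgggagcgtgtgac

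In FFPE liver, Ppard was also lower at the upper doses. Vehicle mice lay between 8.13 and 8.88 (median 8.50), and mice at 198 mg/kg-d between 6.13 and 8.09 (median 7.58). At 313 mg/kg-d the range was 4.54 to 6.84 (median 6.23), and at 427 mg/kg-d 5.53 to 7.67 (median 6.47). No treated mouse reached the lowest vehicle mouse at any of the 3 doses. The difference was -1.04 ± 0.37 at 198 mg/kg-d (FDR 0.287), -2.39 ± 0.37 at 313 mg/kg-d (FDR 0.000118) and -1.96 ± 0.37 at 427 mg/kg-d (FDR 0.00117). Without the 8 FFPE libraries with over 10% of genes at 0, 4 of which are at 198 mg/kg-d, the differences were -0.69 (FDR 0.947), -2.12 (FDR 0.00265) and -1.92 (FDR 0.000239) from the lowest to the highest dose. At 427 mg/kg-d the FFPE hepatocyte marker sum, much of which is Apoa1, was also below that of all vehicle mice. The median difference over the 6 markers was 0.05, and the part of the sum in this result was not tested. In a test on the per-animal gap between FFPE and FROZ, the responses of Ppard differed by -0.61, -0.69 and -0.11 from the lowest to the highest dose, and none passed (FDR 0.529, 0.630 and 1).

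PPAR alpha (Ppara, chromosome 15, 85734983 to 85802819, plus strand) is the main switch of fatty acid oxidation in liver and the receptor of fibrate drugs. In FROZ it lay between 7.71 and 8.82 in vehicle mice (median 8.40), between 7.95 and 8.65 at 198 mg/kg-d (median 8.50), between 8.24 and 8.72 at 313 mg/kg-d (median 8.30) and between 8.47 and 9.07 at 427 mg/kg-d (median 8.77). The ranges of the highest dose and the vehicle overlapped. Ppara was higher at 427 mg/kg-d by 0.39 ± 0.15 (SE, FDR 0.0434), a 1.31-fold level, and at the lower doses the differences were 0.00 and 0.02. This call was lost on leaving out any of 7 animals (4, 5, 6, 8, 100, 101 or 102), with an FDR of up to 0.147, and under median-ratio scaling (0.24, FDR 0.222). The dose slope did not pass the test (FDR 0.0927). In FFPE the difference at 427 mg/kg-d was 0.36 ± 0.28, close in size to that in FROZ but not called (FDR 0.941).

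PPAR gamma (Pparg, chromosome 6, 115360951 to 115490399, plus strand), best known as the regulator of fat cell formation, was near the detection limit. Each FROZ library held 2 to 11 reads of it, at 0.28 to 0.65 in vehicle mice (median 0.49), 0.30 to 1.37 at 198 mg/kg-d (median 0.59), 0.49 to 0.98 at 313 mg/kg-d (median 0.90) and 0.74 to 1.16 at 427 mg/kg-d (median 0.89). The 427 mg/kg-d and vehicle ranges did not overlap. The difference was 0.43 ± 0.15 (FDR 0.0279), and it failed the test on leaving out animal 6, 8, 97 or 98 (FDR up to 0.0671) and under median-ratio scaling (FDR 0.0567). With 0.1 CPM in place of 1 as the offset it was 0.99, the largest value over the settings tried.

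RXR alpha (Rxra, chromosome 2, 27676440 to 27762957, plus strand), the shared partner of most receptors in the group, had the smallest range of group means in FROZ (0.12). It lay between 10.61 and 10.92 in vehicle mice (median 10.76), between 10.68 and 11.21 at 198 mg/kg-d (median 10.79), between 10.58 and 10.84 at 313 mg/kg-d (median 10.75) and between 10.64 and 10.92 at 427 mg/kg-d (median 10.71). The difference at 427 mg/kg-d was -0.02 with a 95% interval of -0.21 to 0.16. With 11083 to 18592 reads per library, this is the most deeply counted of the 10 genes. In FFPE the difference was -0.52 ± 0.20 at 198 mg/kg-d (FDR 0.321), -0.41 ± 0.20 at 313 mg/kg-d (FDR 0.435) and -0.0045 ± 0.20 at 427 mg/kg-d. The value at 198 mg/kg-d was 0.10 without the libraries with over 10% of genes at 0, which left only animals 50 and 51 at that dose.

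FXR (Nr1h4, chromosome 10, 89454234 to 89533585, minus strand), the bile acid sensor of hepatocytes, was the only receptor gene called at all 3 doses in FROZ. Its level ran from 7.83 to 8.26 in vehicle mice (median 7.98), from 8.17 to 8.56 at 198 mg/kg-d (median 8.40), from 8.37 to 8.70 at 313 mg/kg-d (median 8.61) and from 8.87 to 9.12 at 427 mg/kg-d (median 8.99). All mice at 313 and 427 mg/kg-d lay above all vehicle mice, and those at 427 mg/kg-d also lay above all at 313 mg/kg-d. The differences from vehicle were 0.36 ± 0.08 (SE, FDR 0.0337), 0.55 ± 0.08 (FDR 2.41e-05) and 0.97 ± 0.08 (FDR 1.57e-09), the last a 1.96-fold level. The step from 313 to 427 mg/kg-d passed on its own (0.42, FDR 0.00636), where 3.07% of all genes did. Per 100 mg/kg-d the level rose by 0.22 ± 0.02 on the log2 scale (FDR 7.34e-09). The call at 198 mg/kg-d did not hold on leaving out any of 7 animals (3, 4, 5, 6, 49, 52 or 54), where the FDR reached 0.0732, and the difference was 0.27 (FDR 0.192) after median-ratio scaling. The calls at both upper doses held under every setting tried.

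For Nr1h4 the 250 bases before the RefSeq start, at chr10:89506659-89506908 on the minus strand, are printed because the gene was called at each dose. Capitals mark the nuclear receptor half-site AGGTCA or its reverse complement, which occurs once. This RefSeq start lies inside the longer gene span of GENCODE.

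Nr1h4: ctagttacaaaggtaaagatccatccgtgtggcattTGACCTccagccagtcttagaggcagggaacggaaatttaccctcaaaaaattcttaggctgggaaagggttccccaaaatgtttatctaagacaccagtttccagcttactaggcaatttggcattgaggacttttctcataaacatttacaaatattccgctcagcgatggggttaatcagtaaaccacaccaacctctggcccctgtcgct

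FFPE libraries gave a wider spread for Nr1h4. Levels ran from 8.41 to 9.35 in vehicle mice (median 8.85), from 7.87 to 9.56 at 198 mg/kg-d (median 8.85), from 8.94 to 9.66 at 313 mg/kg-d (median 9.16) and from 9.44 to 9.73 at 427 mg/kg-d (median 9.51). Each of the 6 mice at 427 mg/kg-d was above each vehicle mouse. The difference of 0.66 ± 0.22 nevertheless did not pass over all genes (FDR 0.152), and it passed without the libraries with over 10% of genes at 0 (0.61, FDR 0.0328) and with array quality weights (0.62, FDR 0.00159). The lowest levels, 7.87 and 7.95, belonged to animals 49 and 53, both among those libraries.

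SHP (Nr0b2, chromosome 4, 133553376 to 133556536, plus strand), which FXR induces and which restrains bile acid synthesis, was called at the middle dose alone. Its FROZ level was 2.00 to 2.87 in vehicle mice (median 2.27), 0.78 to 2.79 at 198 mg/kg-d (median 2.34), 0.96 to 1.80 at 313 mg/kg-d (median 1.59) and 1.76 to 2.51 at 427 mg/kg-d (median 2.05). Only at 313 mg/kg-d did the mice not overlap with vehicle. The difference there was -0.87 ± 0.25 (FDR 0.00955), against -0.17 at 198 mg/kg-d (FDR 0.784) and -0.20 at 427 mg/kg-d (FDR 0.592). The gene held 6 to 55 reads per FROZ library. The difference between 313 and 427 mg/kg-d (0.68) did not pass the test (FDR 0.137). In FFPE, 7 of the 24 libraries were listed at 0, which allows up to 3 reads or 0.581 to 1.08 CPM, and the other 17 held 21 to 166.9 reads. All 6 FFPE vehicle libraries were above 0. The FFPE differences of -1.31, -1.48 and -1.58 carried an SE of 1.08 and did not pass (FDR 0.650, 0.639 and 0.860).

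LXR alpha (Nr1h3, chromosome 2, 91184061 to 91202834, minus strand) senses oxysterols and turns on cholesterol export and lipogenesis. In FROZ it ran from 3.19 to 3.92 in vehicle mice (median 3.61), from 3.55 to 4.07 at 198 mg/kg-d (median 3.72), from 3.73 to 4.02 at 313 mg/kg-d (median 3.91) and from 3.41 to 3.85 at 427 mg/kg-d (median 3.69). The groups overlapped at every dose. At 313 mg/kg-d the difference was 0.29 ± 0.12 and did not pass (FDR 0.0756), although it did without animal 3 (FDR 0.0353). Its difference at 427 mg/kg-d was 0.07, with a 95% interval of -0.18 to 0.32. In FFPE, animal 73 at 313 mg/kg-d was listed at 0 (up to 0.972 CPM), a library with 1 read stood at 198 mg/kg-d, and no difference passed.

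CAR (Nr1i3, chromosome 1, 171213970 to 171220701, plus strand), the receptor behind phenobarbital induction of drug-metabolizing enzymes, was higher at 427 mg/kg-d in both preservations. FROZ levels were 7.93 to 8.71 in vehicle mice (median 8.32), 7.46 to 8.43 at 198 mg/kg-d (median 8.04), 7.91 to 8.60 at 313 mg/kg-d (median 8.36) and 8.64 to 9.05 at 427 mg/kg-d (median 8.90). The top dose overlapped with vehicle by 1 mouse but not with 313 mg/kg-d. It was 0.59 ± 0.14 (SE) above vehicle (FDR 0.00246), a 1.5-fold level, and 0.60 above 313 mg/kg-d (FDR 0.0175). At 198 mg/kg-d the difference was -0.31 ± 0.14, which did not pass (FDR 0.268), and at 313 mg/kg-d -0.02. The dose slope was called (FDR 0.0329), but not without animal 8, 97, 98, 99, 100 or 102 (FDR up to 0.0735). It was also not called after median-ratio scaling (FDR 0.1455).

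In FFPE, Nr1i3 ran from 5.81 to 7.71 in vehicle mice (median 7.08), from 6.29 to 7.86 at 198 mg/kg-d (median 7.14), from 6.44 to 8.55 at 313 mg/kg-d (median 7.66) and from 7.82 to 8.65 at 427 mg/kg-d (median 8.43). All mice at the top dose exceeded all vehicle mice. The difference was 1.41 ± 0.34 (FDR 0.0136), a 2.67-fold level. The call was lost without animal 4, the lowest vehicle mouse (1.18, FDR 0.0582), and in limma without the variance trend (FDR 0.0718). The hepatocyte marker sum of these FFPE libraries, much of which is Apoa1, was below that of all vehicle mice. The median difference over the 6 markers was 0.05, and the part of the sum in the result was not tested. The paired difference between FFPE and FROZ responses, 0.83 with a 95% interval of 0.14 to 1.52, had an unadjusted p of 0.0211 and did not pass over all genes (FDR 1 in limma).

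The promoter of Nr1i3, at chr1:171213720-171213969 on the plus strand, is given as that of the gene called higher in both preservations in the main fits. The E-box CACGTG is in capitals (it reads the same on both strands). It holds neither GGGCGG nor AGGTCA.

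Nr1i3: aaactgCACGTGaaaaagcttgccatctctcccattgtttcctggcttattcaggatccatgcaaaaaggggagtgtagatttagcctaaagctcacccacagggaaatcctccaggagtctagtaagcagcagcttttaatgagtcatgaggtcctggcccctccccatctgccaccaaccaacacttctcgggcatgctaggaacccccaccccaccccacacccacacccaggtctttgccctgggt

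Across the 15 RefSeq promoter entries of the 10 genes, which cover 250 bases before a start, GGGCGG occurred in 7 entries, AGGTCA in 4 and CACGTG in 2. Among all 32851 entries of the same length, 32.7% held GGGCGG, 14% AGGTCA and 6.02% CACGTG. A match describes letters in this window and is not evidence of binding.

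PXR (Nr1i2, chromosome 16, 38248323 to 38294824, minus strand), the broad sensor of drugs and steroids, rose in FROZ at the highest dose only. Levels were 6.49 to 7.50 in vehicle mice (median 7.11), 6.79 to 7.47 at 198 mg/kg-d (median 7.01), 7.08 to 7.44 at 313 mg/kg-d (median 7.10) and 7.35 to 7.93 at 427 mg/kg-d (median 7.58). The ranges of the top dose and vehicle overlapped. The difference was 0.51 ± 0.13 (SE, FDR 0.00324), a 1.43-fold level, against 0.00 and 0.08 at the lower doses, and the step from 313 mg/kg-d (0.43) did not pass (FDR 0.0654). In FFPE the difference at 427 mg/kg-d was 0.88 ± 0.67 (FDR 0.921). The FFPE library of animal 49 at 198 mg/kg-d, the shallowest at 1.82 M reads, was listed at 0 (up to 1.65 CPM). At that dose the FFPE difference was -1.70 (FDR 0.324), and 0.21 without the libraries with over 10% of genes at 0. The second value rests on animals 50 and 51 alone at 198 mg/kg-d.

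HNF4 alpha (Hnf4a, chromosome 2, 163506808 to 163572910, plus strand) maintains the hepatocyte programme, including apolipoprotein and clotting factor genes. Its FROZ level lay between 8.23 and 8.88 in vehicle mice (median 8.50), between 8.21 and 8.70 at 198 mg/kg-d (median 8.39), between 8.27 and 8.99 at 313 mg/kg-d (median 8.70) and between 8.84 and 9.17 at 427 mg/kg-d (median 8.94). Of the 6 mice at 427 mg/kg-d, 3 were above the highest vehicle mouse. The difference of 0.45 ± 0.12 was called (FDR 0.00441), a 1.37-fold level, while those of -0.07 and 0.15 at the lower doses were not. Median-ratio scaling gave 0.31, which did not pass (FDR 0.0525). In FFPE it was 0.26 ± 0.22 at 427 mg/kg-d (FDR 0.971). At 198 mg/kg-d in FFPE, 5 of 6 mice were below all vehicle mice (-0.67, FDR 0.261), a value that was -0.18 without the libraries with over 10% of genes at 0. Only animals 50 and 51 remained at that dose in the latter fit.

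**Figure D2:**
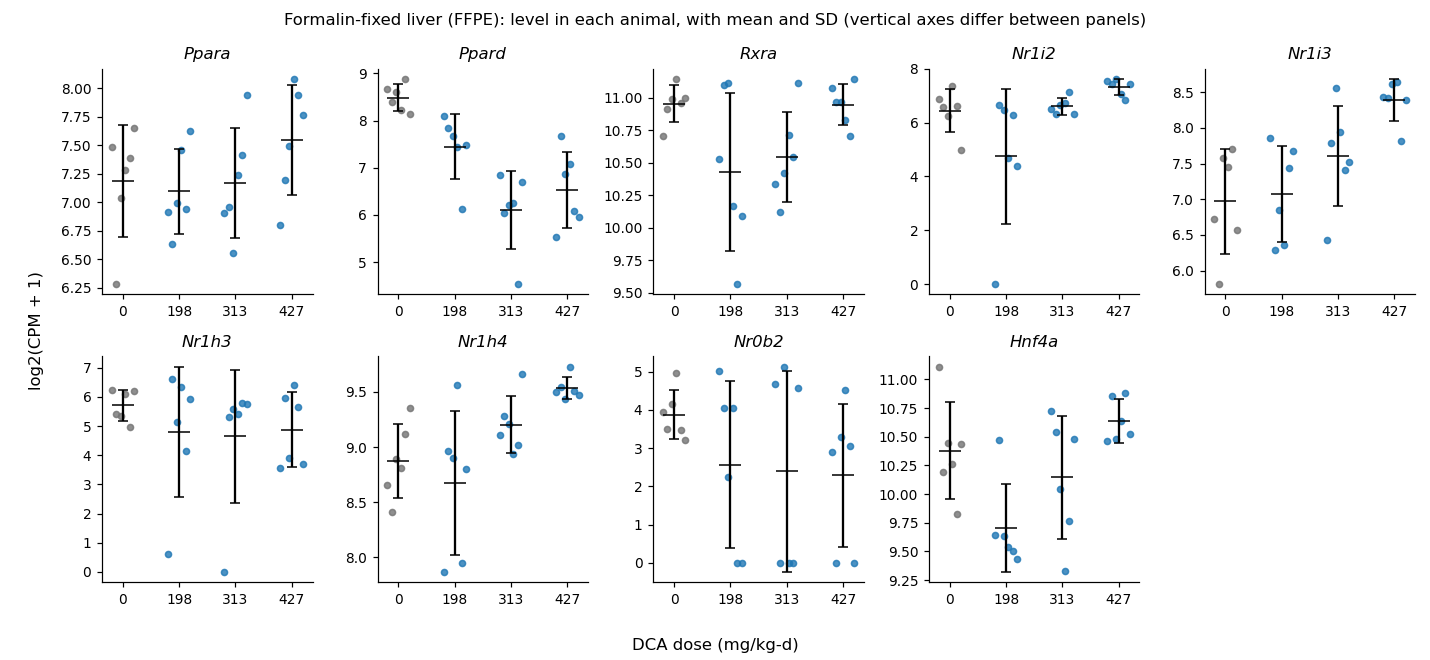
Level of the 9 receptor genes listed in FFPE liver as log2(CPM + 1) against DCA dose in mg/kg-d, with 1 point per animal and the mean and SD of 6 animals. Nr0b2 has points at 0 at each DCA dose (7 libraries in all), and the Ppard points at the 3 doses lie below those of the vehicle mice.

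Over the FFPE table, 0 of 9 receptor genes were called by limma at 198 mg/kg-d, where 0.0599% of all genes were called. At an unadjusted p under 0.05 there were 4 of 9, against 11.8% of all genes. These 4 (Ppard, Rxra, Nr1i2 and Hnf4a) were all lower, where the median difference of all genes was -0.186. Without the libraries with over 10% of genes at 0 they were at -0.69, 0.10, 0.21 and -0.18 (FDR 0.947 to 0.978), and that median was 0.11. Because only animals 50 and 51 remained at 198 mg/kg-d, this fit cannot show whether the lower values were lost. At 313 mg/kg-d, 1 was called lower (Ppard), against 0.764% of all genes higher and 0.315% lower. At 427 mg/kg-d, Nr1i3 was higher and Ppard lower, against 1.54% and 0.869%, and both exceeded a fold of 2, as 1.81% of all genes did. The dose slope called the same pair, against 1.51% of genes rising and 0.659% falling. Ppard fell by 0.53 ± 0.09 on the log2 scale per 100 mg/kg-d in FFPE and by 0.47 ± 0.06 in FROZ (FDR 0.000359 and 2.95e-07).

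The response to DCA was compared between preservations within each animal. Of the 9 receptor genes listed in both tables, 0 differed at 198, 313 or 427 mg/kg-d by limma, against 0.0303%, 0% and 0.0303% of the 6591 shared genes. At an unadjusted p under 0.05 there were 4, 0 and 1, against 12%, 8.19% and 2.38% of the shared genes. The 4 at 198 mg/kg-d were Hnf4a (FFPE minus FROZ response -0.60), Nr1h4 (-0.56), Nr1i2 (-1.70) and Rxra (-0.62). Without the FFPE libraries with over 10% of genes at 0 they were at -0.25, -0.33, 0.36 and 0.15, and none passed over all genes. These values rest on animals 50 and 51 alone at 198 mg/kg-d. In the main fit the 95% interval was widest for Nr0b2, from -3.51 to 0.74 at 427 mg/kg-d. For Ppara at 427 mg/kg-d the interval was -0.51 to 0.45 and for Rxra -0.45 to 0.48.

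**Figure D3:**
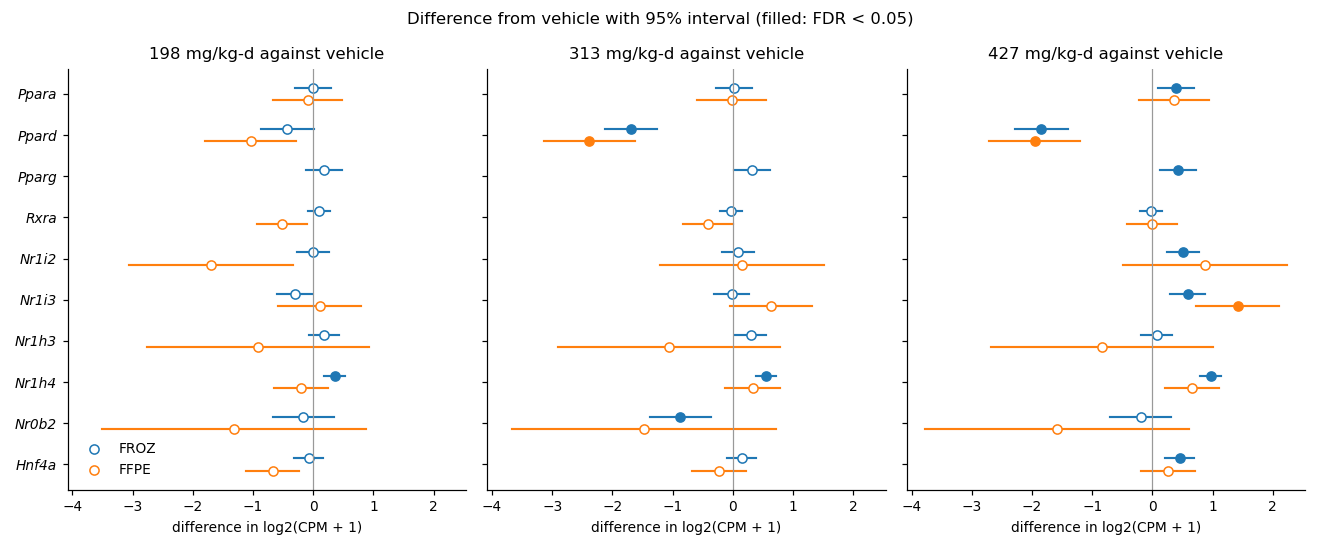
Difference from vehicle in log2(CPM + 1) for each receptor gene at 198, 313 and 427 mg/kg-d, with 95% intervals, in FROZ and FFPE, and filled points for an FDR under 0.05. FROZ intervals are narrower for each of the 9 genes listed in both tables, and Ppard is the only gene filled in both preservations at 313 mg/kg-d.

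The levels themselves differed between preservations in vehicle mice. Of the 9 genes, 6 passed in the paired test: Hnf4a, Nr1h3, Nr1h4 and Ppard were higher in FFPE, and Nr1i3 and Ppara were lower, against 32.5% of shared genes higher and 21.7% lower. Ppard was 2.59 ± 0.27 higher in FFPE (SE, FDR 9.08e-09) and Nr1h3 2.12 ± 0.67 (FDR 0.0102), a call lost with an offset of 0.1 CPM (2.21, FDR 0.0583). Hnf4a was 1.87 ± 0.13 higher (FDR 7.33e-12) and Nr1h4 0.85 ± 0.15 higher (FDR 4.59e-05). The FFPE minus FROZ difference of Nr1i3 was -1.33 ± 0.24 (FDR 4.13e-05) and that of Ppara was -1.19 ± 0.16 (FDR 1.01e-06). Rxra (0.19, 95% interval -0.14 to 0.52) and Nr1i2 (-0.62, -1.72 to 0.48) did not pass, and both did when the libraries with over 10% of genes at 0 were left out (FDR 0.0311 and 0.0132). Nr0b2 was higher in FFPE in all 6 animals (1.56, 95% interval 0.06 to 3.06) but did not pass either (FDR 0.0734). The tables were scaled separately. Lobe, fixation, storage, RNA quality, input (purified RNA or section lysate) and scaling cannot be told apart in these offsets. Rescaling both tables to their shared genes moved the Ppard value to 2.54.

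**Figure D4:**
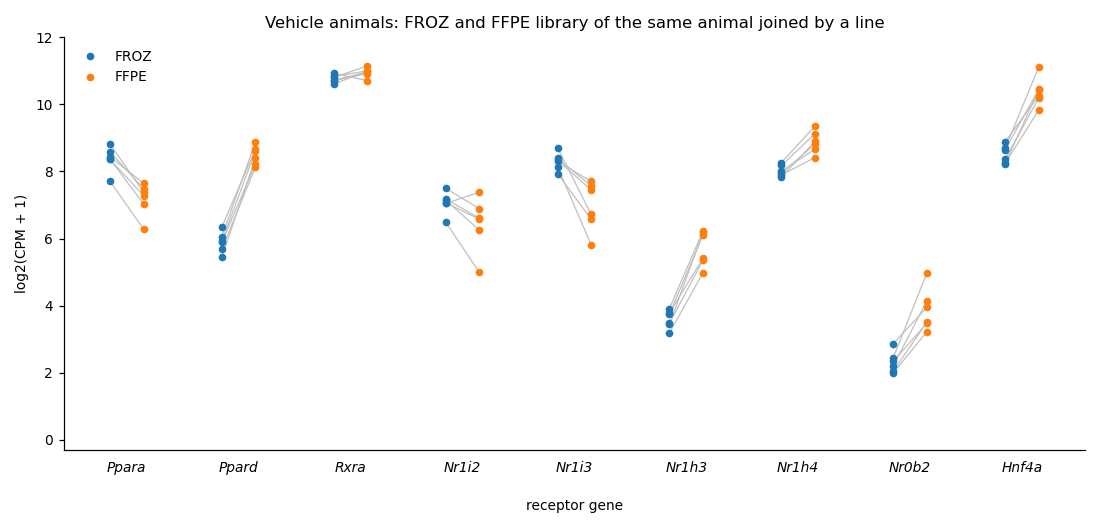
Level of 9 receptor genes in the 6 vehicle mice as log2(CPM + 1), with the FROZ and FFPE library of each animal joined by a line. Lines rise for Ppard, Nr1h3, Nr1h4, Nr0b2 and Hnf4a and fall for Ppara and Nr1i3 in all 6 animals. Of these genes, only Nr0b2 did not pass the paired test (FDR 0.0734).

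Target genes of the receptors were counted from lists of textbook targets. Each count at 427 mg/kg-d stands beside 22.7% of all genes called higher and 7.33% lower in FROZ, with a median difference of 0.10, and 1.54% and 0.869% in FFPE, with a median of 0.18. Of 19 listed PPAR alpha targets, 0 were called at 198 mg/kg-d in FROZ, 16 were higher at the middle dose (20.5% of all genes) and 18 at the top dose, where the median difference was 1.54. Cyp4a14, a fatty acid omega-hydroxylase, went from 0.71 ± 0.46 (SD, n = 6) in vehicle mice to 9.42 ± 0.42 at 427 mg/kg-d, a difference of 8.70 (FDR 4.76e-16). Its relative Cyp4a10 rose by 7.09 (FDR 1.44e-12), and Acot1, a thioesterase that frees fatty acids from coenzyme A, by 5.41 (FDR 2.81e-11). In FFPE, 9 of 16 listed targets were higher at 427 mg/kg-d and 0 were lower, Acot1 by 5.21 (FDR 1.39e-06). Ppara itself differed by 0.39 in FROZ at the same dose.

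The CAR and PXR targets moved in both directions. At 427 mg/kg-d in FROZ, 10 of 18 (55.6%) were higher and 3 (16.7%) lower, against 22.7% and 7.33% of all genes, with a median of 0.69. Cyp2b9, a steroid hydroxylase, rose by 4.71 (FDR 7.31e-10), Gsta2, a glutathione transferase, by 3.11 (FDR 9.96e-10) and Cyp2a5, a coumarin hydroxylase, by 2.17 (FDR 6.03e-09). The carboxylesterase Ces2a fell by 1.32 (FDR 2.50e-07), the uptake transporter Slco1a4 by 1.17 (FDR 0.00387) and Cyp2c55 by 0.74 (FDR 0.0374). In FFPE, 4 of 13 were higher and 0 lower, among them Cyp2a5 (2.18, FDR 2.16e-05).

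Among LXR targets, 7 of 11 (63.6%) were higher and 0 lower at 427 mg/kg-d in FROZ, with a median of 0.90. The 3 largest changes were in lipogenic genes: the desaturase Scd1 (3.28, FDR 1.77e-10), the regulator Srebf1 (1.73, FDR 1.89e-05) and fatty acid synthase Fasn (1.46, FDR 1.30e-06). In FFPE, 2 of 8 were higher, Scd1 by 3.01 (FDR 2.14e-08) and Fasn by 1.37 (FDR 0.00995). Nr1h3 was not called at this dose in either preservation.

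Of the FXR and SHP targets, 2 of 9 (22.2%) were higher at 427 mg/kg-d in FROZ, a share near the 22.7% of all genes, and 3 (33.3%) were lower, against 7.33%, with a median of -0.15. The list pools genes that FXR induces with genes that it acts to repress, so these shares and the median have no single direction. The phospholipid exporter Abcb4 rose by 1.52 (FDR 2.30e-06), as did Cyp7a1, the rate-limiting enzyme of bile acid synthesis, which FXR acts to repress (1.03, FDR 0.0199). The transporter subunit Slc51b fell by 0.88 (FDR 0.0192), the fibroblast growth factor receptor Fgfr4 by 0.64 (FDR 0.000905) and the bile salt export pump Abcb11 by 0.41 (FDR 0.00138). In FFPE, 0 of the 8 listed were called by limma, with 2 at an unadjusted p under 0.05, as 8.71% of all genes were.

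Of the HNF4A targets, 3 of 10 (30%) were higher at 427 mg/kg-d in FROZ, near the 22.7% of all genes, and 5 (50%) were lower, against 7.33%, with a median of -0.20. Mttp, which loads lipid onto lipoproteins, rose by 0.88 (FDR 1.71e-07), the glucose transporter Slc2a2 by 0.53 (FDR 0.000485) and the apolipoprotein Apoa2 by 0.52 (FDR 0.00999). Clotting factor genes F9 and F12 fell by 0.75 (FDR 2.17e-05) and 0.71 (FDR 1.37e-07), and the apolipoprotein Apob by 0.53 (FDR 0.00186). In FFPE, 0 of 10 were called by limma, with 4 at an unadjusted p under 0.05, against 8.71% of all genes. Of the PPAR gamma targets 3 of 7 were listed, and 0 were called in either table at any dose, with 1 at an unadjusted p under 0.05 at 427 mg/kg-d in each.

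**Figure D5:**
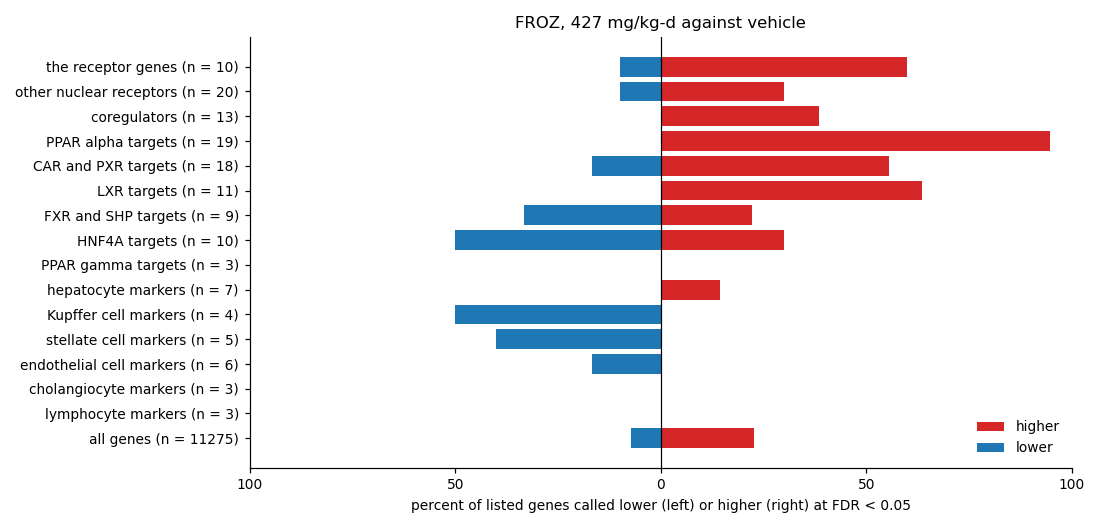
Percent of the listed genes of each target, receptor, coregulator and cell type marker list called higher (right) or lower (left) at 427 mg/kg-d in FROZ liver, with the number of listed genes beside each name. PPAR alpha targets extend furthest to the right (18 of 19 genes), and HNF4A targets and Kupffer cell markers extend furthest to the left (5 of 10 and 2 of 4), where all genes are at 22.7% and 7.33%.

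Of 20 other nuclear receptors listed, 6 (30%) were higher and 2 (10%) lower at 427 mg/kg-d in FROZ, near the 22.7% and 7.33% of all genes, with a median of 0.17. The circadian repressors Nr1d1 (3.21, FDR 3.91e-13) and Nr1d2 (2.18, FDR 3.85e-10) and the retinoic acid receptor Rarb (1.00, FDR 4.57e-05) rose most. Nr1d1 and Nr1d2 rose by more than any of the 10 receptors of liver metabolism. Rarb, at a mean of 1.11 in vehicle mice and 2.10 at this dose, rose by 1.00 ± 0.17 (SE), close to the 0.97 ± 0.08 of Nr1h4. The oestrogen receptor Esr1 fell by 0.77 (FDR 0.000584) and Nr2c2 by 0.29 (FDR 0.0149). Of 13 coregulators, 5 (38.5%) were higher and 0 lower, against 22.7% and 7.33% of all genes, led by Hdac3 (0.45, FDR 0.00154), Ncor1 (0.42, FDR 0.000536) and Ncoa1 (0.41, FDR 8.84e-05), which form or bind the complexes that silence or activate receptor targets.

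The gene most like each receptor was sought over the 24 FROZ libraries, which share the dose groups, among 5867 genes averaging 10 CPM or more. For Ppard it was Abca2 (Pearson r 0.929, Spearman rho 0.926), for Nr1h4 Gjb2 (0.913, 0.902), for Nr1i2 Bag1 (0.898, 0.894) and for Rxra Rnf40 (0.876, 0.834). For Nr1i3 it was Cblb (0.851, 0.791), for Hnf4a Ncbp2 (0.825, 0.813), for Nr0b2 Rbp4 (0.778, 0.821) and for Ppara A730008H23Rik (0.775, 0.762). The lowest values of these maxima were those of Nr1h3 with Pigyl (0.736, 0.641) and Pparg with Psmg1 (0.701, 0.75). With the dose means removed, r was 0.683 for Ppard, 0.624 for Nr1h4 and 0.907 for Rxra. These are the highest of many values and are descriptions only.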

How the data were processed

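The 48 TempO-Seq libraries were grouped by dose and preservation from the sample records and paired by animal number. Each table holds log2(CPM + 1) as deposited by the authors: reads were demultiplexed with Illumina software, aligned to mm10 with STAR (version 2.6 per the labels) in Partek Flow and counted on RefSeq transcripts by expectation maximization. Before scaling, genes whose geometric mean did not exceed 1 were dropped, separately for FROZ and FFPE, so a table's CPM depend on which genes it lists. According to the paper, signals of very abundant transcripts were attenuated in the assay to the same degree in every sample, which saved reads. RNA-Seq libraries were not analysed here.

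From these values, limma 3.58.1 (R 4.3.3) was fitted to the 24 libraries of each table with a trended variance prior, for each dose against vehicle, between neighbouring doses and as a slope. FFPE minus FROZ differences of each animal were fitted in the same way, so that the animal is the block. The design was checked over 4815 genes that averaged 10 CPM or more in FROZ and in FFPE: the FROZ library of 21 of 24 animals correlated best with its own FFPE library within the dose, and the median r of deviations within an animal was 0.128. Benjamini-Hochberg adjustment covered all genes of a table. Two-sided tests were used throughout. The scripts were tested on simulated data.

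Depth was recovered as the CPM step of the low values, with 96.4 to 97.5% of them at whole reads (within 0.1 read) in FROZ and 81.2 to 95.3% in FFPE. No count test was run, since expectation maximization gives fractional reads. Reads carry no molecular identifiers, so limits at 0 cover counting error only.

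All 10 receptor genes and all genes of the target lists were examined. By rule, up to 3 genes with the largest increase and 3 with the largest decrease among those called at 427 mg/kg-d in FROZ were named per list, and 1 gene per receptor with the highest Pearson r. Members, lists and tests were chosen with earlier results of these data known. Promoters came from RefSeq (GRCm38.p6; all 10 genes matched) and gene positions from GENCODE vM21. Alternatives were median-ratio scaling, an offset of 0.1 CPM, a filter at a mean of 10 CPM, no variance trend, array quality weights, only the libraries of a dose and its vehicle, no animal block, rescaling to shared genes and leaving out each animal. A fit without the 8 FFPE libraries with over 10% of genes at 0 was added after seeing the data.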

Additional observations from a re-analysis of the deposited data

Results flagged for a closer look

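Of 76 groups of 6 libraries (10 FROZ and 9 FFPE genes at each dose level), 8 held a library whose gap to its nearest neighbour exceeded the 95% critical value of Dixon's test; chance alone gives about 1 group in 20. The only one in FROZ was Nr1i2 in animal 73 at 313 mg/kg-d, at 7.44 against 7.08 to 7.14 in the other 5 mice.

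The other 7 were in FFPE. Ppard was low in animal 53 at 198 mg/kg-d (6.13, others 7.43 to 8.09) and in animal 77 at 313 mg/kg-d (4.54, others 6.04 to 6.84). Nr1i2 was listed at 0 in animal 49 at 198 mg/kg-d (others 4.38 to 6.67), and Nr1h3 at 0 in animal 73 at 313 mg/kg-d (others 5.32 to 5.81). These 4 libraries have over 10% of their genes at 0. Hnf4a was high in animal 50 at 198 mg/kg-d (10.47, others 9.43 to 9.64), where 4 of the other 5 libraries have over 10% of genes at 0. At 427 mg/kg-d, Nr1i3 was low in animal 101 (7.82, others 8.39 to 8.65) and Nr1h4 was high in animal 100 (9.73, others 9.44 to 9.55). The part of library quality in these values was not tested.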

How the results depend on the processing

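The single-gene differences kept their sign in 3291 of 3365 refits, and no called value changed sign. Many of these refits could not change a sign. Leaving out an animal of a group outside the comparison leaves a difference from vehicle as it was. So do the fits without the variance trend, with the filter at a mean of 10 CPM or with only the dose and vehicle libraries. The count of kept signs is therefore not a measure of stability. Calls of Ppard at 313 and 427 mg/kg-d in both preservations, and of Nr1h4 at 313 and 427 mg/kg-d in FROZ, held in all settings and without each animal. Median-ratio scaling brought the median of all FROZ genes at 427 mg/kg-d from 0.10 to -0.0069. It gave 0 called receptor genes at 198 mg/kg-d, 4 at the top dose and 3 for the slope. The calls lost at the top dose were those of Ppara (0.24, FDR 0.222), Pparg (FDR 0.0567) and Hnf4a (FDR 0.0525). The slopes lost were those of Hnf4a (FDR 0.107), Nr1i2 (FDR 0.106) and Nr1i3 (FDR 0.1455). Without the variance trend the count was 0 at 198 mg/kg-d and 6 at 427 mg/kg-d in FROZ (Ppara FDR 0.0574), and 1 at 427 mg/kg-d and 1 for the slope in FFPE. Nr1i3 lost both of its FFPE calls there (FDR 0.0718 and 0.08445). With only the dose and vehicle libraries it was 0 at 198 mg/kg-d and 6 at 427 mg/kg-d in FROZ (Ppara FDR 0.06), and 3 at 427 mg/kg-d in FFPE, where it was also 3 with array quality weights and without the libraries with over 10% of genes at 0, Nr1h4 being added each time (FDR 0.00645, 0.00159 and 0.0328). With an offset of 0.1 CPM, Nr1h3 lost its level call between FFPE and FROZ (FDR 0.0583). Leaving out 1 animal gave 0 to 1 at 198 mg/kg-d and 5 to 7 at the top dose in FROZ, and 1 to 2 at 427 mg/kg-d and 1 to 2 for the slope in FFPE (without animal 4, or for the slope also 100). The cause was not tested. In the paired comparison without the animal block, the Ppard difference between FFPE and FROZ in vehicle mice was 2.59 ± 0.33 (SE, FDR 4.59e-09), and the block changed no call among the 9 genes. The part of FFPE depth in the missing calls was not tested.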
